A study of Mus musculus with 39 samples.

Results

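The regions described here are 1476 stretches of the mouse genome that carried a listed H3K27ac peak in all 3 Oct4+ libraries and in 0 of the 6 other H3K27ac libraries, and that overlapped no consensus H3K4me1 region of the Oct4+ population. They were selected on measured values, namely the presence of listed H3K27ac peaks in 9 libraries and of listed H3K4me1 peaks in the 3 Oct4+ libraries. The peaks of the 9 H3K27ac libraries merged into 78959 regions. Of these, 2421 were Oct4-only (3.07%), and 1476 of the 2421 lacked a consensus H3K4me1 region, meaning a merged interval seen in 2 or more of the 3 Oct4+ H3K4me1 libraries. The remaining 945 Oct4-only regions, which overlapped such an interval, and 1545 regions with an H3K27ac peak in all 9 libraries served for comparison.

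CUT&Tag, in which an antibody brings a transposase to a histone mark so that the surrounding DNA is tagged and sequenced, was performed on naive extra-embryonic endoderm (nEnd), a mouse culture model of the early primitive endoderm. All cells came from 1 OCT4-mCherry reporter line without treatment, and were sorted by FACS for the reporter and for surface PDGFRA stained with APC into Oct4+, double positive (DP) and Pdgfra+ populations. H3K27ac, H3K4me1, H3K27me3 and H3K9me3 were each profiled in 3 populations with 3 replicates, giving 36 lists of peaks. The 3 IgG samples named in the labels were not analysed here. The sorted cells are a bulk sample, so a mark on fewer cells and less of the mark per cell cannot be told apart.

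H3K27ac marks active promoters and enhancers, and H3K4me1 is deposited around enhancers, often before acetylation. H3K27me3 is laid down by Polycomb repressive complexes over silent developmental genes. H3K9me3 marks constitutive heterochromatin and silenced transposable elements, and zinc finger gene clusters also carry it.

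The sequence at the strongest point of H3K27ac is printed for 5 regions, as 300 bp of the forward strand of GRCm38 (mm10) around the midpoint of the maximum-signal interval. The first is an intergenic stretch of the region that overlaps the promoter of the protein-coding gene Tdpoz3, among the strongest promoter regions, the next pair are the strongest with no annotated transcription start site (TSS) within 1 kb, and the last pair lie at pluripotency genes. Capitals mark matches to the 15 short motifs searched.
Tdpoz3, chr3:93819785-93820084, intergenic: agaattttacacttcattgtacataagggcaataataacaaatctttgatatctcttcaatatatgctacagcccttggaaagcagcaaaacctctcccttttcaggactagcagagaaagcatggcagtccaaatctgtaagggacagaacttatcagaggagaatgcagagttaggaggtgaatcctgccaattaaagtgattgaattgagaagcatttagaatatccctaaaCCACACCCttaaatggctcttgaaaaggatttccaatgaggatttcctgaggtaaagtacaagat
Zfp990 as nearest protein-coding gene, chr4:145433618-145433917, intron of the non-coding gene Platr16: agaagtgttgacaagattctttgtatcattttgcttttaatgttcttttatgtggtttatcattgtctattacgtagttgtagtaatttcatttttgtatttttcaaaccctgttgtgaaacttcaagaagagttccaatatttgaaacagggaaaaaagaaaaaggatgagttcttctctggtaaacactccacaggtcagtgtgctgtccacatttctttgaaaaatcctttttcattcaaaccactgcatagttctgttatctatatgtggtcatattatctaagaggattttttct
Gm10553 as nearest protein-coding gene, chr1:85090604-85090903, intron of A530032D15Rik and C130026I21Rik: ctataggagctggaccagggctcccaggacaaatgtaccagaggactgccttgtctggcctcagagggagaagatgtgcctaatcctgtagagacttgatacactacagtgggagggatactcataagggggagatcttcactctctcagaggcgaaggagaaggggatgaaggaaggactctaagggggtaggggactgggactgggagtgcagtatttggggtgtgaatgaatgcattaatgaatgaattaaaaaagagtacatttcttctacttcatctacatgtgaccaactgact
Sox2, chr3:34649458-34649757, promoter, within the non-coding gene Sox2ot: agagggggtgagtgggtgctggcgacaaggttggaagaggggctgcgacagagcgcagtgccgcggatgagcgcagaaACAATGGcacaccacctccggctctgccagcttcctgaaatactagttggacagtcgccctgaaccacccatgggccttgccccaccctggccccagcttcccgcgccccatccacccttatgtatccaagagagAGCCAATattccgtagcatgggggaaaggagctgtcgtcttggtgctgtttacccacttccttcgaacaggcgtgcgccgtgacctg
Tbx3, chr5:119680045-119680344, promoter of an internal annotated start: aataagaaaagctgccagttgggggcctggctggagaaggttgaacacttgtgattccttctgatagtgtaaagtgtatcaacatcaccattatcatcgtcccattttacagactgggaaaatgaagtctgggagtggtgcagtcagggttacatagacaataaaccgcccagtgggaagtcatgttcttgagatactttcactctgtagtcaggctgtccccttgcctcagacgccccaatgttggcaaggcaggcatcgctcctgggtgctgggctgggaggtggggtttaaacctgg
The Tdpoz3 window held 1 match to a KLF motif (CCACACCC), and no motif searched was found in the Zfp990, Gm10553 or Tbx3 windows. The Sox2 window held 1 match each to a SOX motif (ACAATGG) and an NFY motif (AGCCAAT), had a GC content of 60.7% and held 16 CpG dinucleotides, against 0 to 4 in the other 4 windows. In the Tdpoz3, Zfp990 and Gm10553 windows, 37.2%, 29.7% and 45.7% of the overlapping 32-base words also occurred elsewhere in GRCm38, against 0% in the Sox2 and Tbx3 windows.

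The lists differed in length and in their lowest total signal, the fragment coverage summed over a peak. The 3 Oct4+ H3K27ac lists held 38619, 65131 and 8574 peaks, with a lowest total signal of 6021, 5460 and 5716. DP lists held 3079 to 12244 peaks, with a lowest total signal of 13683 to 14586. Pdgfra+ lists held 4792 to 7128 peaks, with a lowest total signal of 27115, 8736 and 28044. Sequencing depth is unknown, and the mark may also be present where no peak was listed. At marker genes, a listed H3K27ac peak overlapped a promoter of Nanog and of Sox2 in 3 of 3 Oct4+ libraries and 0 of 6 others, and one of Pdgfra in 0 Oct4+, 2 DP and 3 Pdgfra+ libraries. The pluripotency factor gene Pou5f1, which encodes OCT4, had one in 3 Oct4+, 1 DP and 1 Pdgfra+ libraries. The endoderm genes Gata6, Gata4 and Sox17 had one in 2, 1 and 2 Oct4+ libraries, respectively, 2 to 3 DP libraries and all 3 Pdgfra+ libraries.

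In H3K27ac, the regions without H3K4me1 were narrower and weaker than both comparison groups, given here as a description because these values chose them. Their median width was 4442 bp (829 to 20098 bp), against 5641 bp for Oct4-only regions with H3K4me1 and 7431 bp for regions in all 9 libraries. Their median total signal, summed over the peaks of a region, was 13017, 12362 and 7225 in Oct4+ R1, R2 and R3. The Oct4-only regions with H3K4me1 had medians of 20453, 18895 and 8883 in the same libraries. The median of the maximum coverage was 11, 10 and 8 fragments without H3K4me1, and 13, 12 and 9 with it. Within the libraries' own lists, the regions without H3K4me1 stood at a median percentile of 79.2 in R1 and 80.8 in R2, but of 41.2 in R3, the shortest list. The order of the 1476 regions was shared only in part by the 3 libraries. The Spearman correlation across regions was 0.57 between R1 and R2, 0.47 between R1 and R3 and 0.38 between R2 and R3. These regions are not independent replicates and share the libraries' own background.

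In at least 1 Oct4+ library, the total signal of most of these regions lay below the lowest value of every DP list. In R1, 697 of the 1476 regions reached 13683, the lowest total signal of DP R1, and 636 did so in R2 and 132 in R3. All 3 Oct4+ libraries reached it at 114 regions (7.72%). Against the Pdgfra+ lists, they reached the 8736 of R2 at 370 regions (25.1%), the 27115 of R1 at 15 and the 28044 of R3 at 14 regions (0.949%). Of the 945 regions with H3K4me1, 219 (23.2%) reached the lowest value of DP R1, 463 (49.0%) that of Pdgfra+ R2 and 26 (2.75%) that of Pdgfra+ R3. Signal was not scaled for depth, so at a region below a list's lowest value, the absence of a peak from that list cannot be told apart from these differences between lists.

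**Figure D1:**
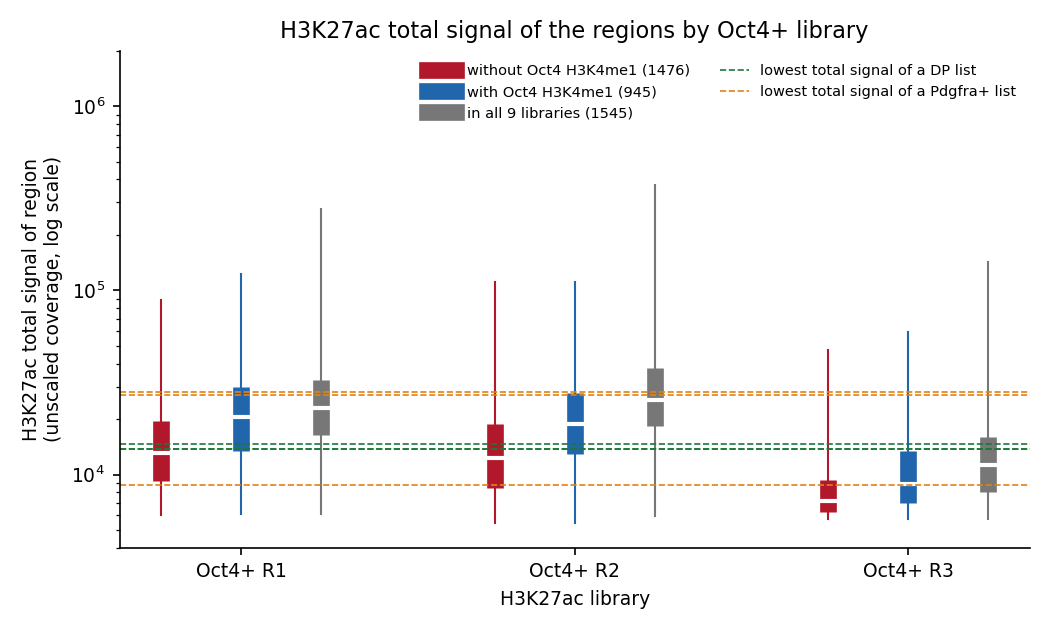
H3K27ac total signal (log scale, unscaled coverage) of the regions in each Oct4+ library, with thin lines from the lowest to the highest value, thick bars for the middle 50% and white ticks for the median. Dashed lines give the lowest total signal of each DP and Pdgfra+ list. The median of the 1476 regions without H3K4me1 (red) fell below that of the other groups in all 3 libraries, and in R3 (7225) below every dashed line.

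Near the limits of the rule, 286 regions without H3K4me1 had peaks in 3 Oct4+ and 1 other H3K27ac library. They were of similar strength, with a median percentile of 65.5 against 63.8 for the 1476 regions (mean of the 3 libraries), but 57.3% lay at a promoter against 28.5%. A further 10662 had peaks in exactly 2 Oct4+ libraries and no other, at a median percentile of 49.7. On the H3K4me1 side, 1027 of the 1476 regions (69.6%) had no H3K4me1 peak in any Oct4+ library, 442 had one in 1 library, and 7 were overlapped by peaks of 2 libraries that did not merge into a consensus interval over the region. R2, which had the longest H3K4me1 list of the 3 (16057 peaks), gave 399 of those 442. The median distance to the nearest Oct4+ consensus H3K4me1 region was 123 kb, and 18 regions lay within 1 kb of one.

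Most of the regions lay away from promoters. A promoter, taken as the 1 kb before and the 100 bp after any annotated TSS, was overlapped by 420 of the 1476 regions (28.5%, exact 95% confidence interval 26.2 to 30.8%), which covers counting error only. The share was 27.1% for Oct4-only regions with H3K4me1, 93.6% for regions in all 9 libraries and 25.2% for all 78959. By the point of strongest H3K27ac, 671 regions lay in introns (45.5%), 561 between genes (38%), 151 in promoters (10.2%) and 93 in exons (6.30%). The median distance to a protein-coding TSS was 19.2 kb, against 12.9 kb with H3K4me1, and 262 regions (17.8%) lay more than 100 kb away, against 10.4%. Of the promoter regions, 272 were at protein-coding genes, 50 at processed pseudogenes and 30 at lincRNA genes. The regions were spread over the 19 autosomes, with 31 (chromosome 19) to 125 (chromosome 1) each, and 16 lay on chromosome X.

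Some of the regions lay close together. A total of 459 (31.1%) fell into 192 groups with gaps of at most 100 kb, of which 10 groups held 5 or more. The comparison groups were not counted in this way, so whether this share is high was not tested. The largest, chr13:12811735-12940732, held 9 regions next to Prl2c2 and Prl2c3, which encode proliferins of the prolactin family. The next, chr4:145299361-145580591, held 8 near Zfp990, in a cluster of KRAB zinc finger genes, and chr4:146479870-146534269 held 5 at Zfp981. In the Prl2c group, 6 of 9 regions overlapped an Oct4+ H3K9me3 consensus region and the median share of repeated 32-base words was 55%. By contrast, 6 regions within and around Ipo11 (chr13:106854769-106937791), a nuclear import receptor gene, and 5 at Tns3 (chr11:8432976-8608353), a focal adhesion gene, overlapped 0 Oct4+ H3K9me3 consensus regions and had a median of 0% repeated words. A further 5 lay in the immunoglobulin heavy-chain locus at chr12:113262681-113484661. The nearest protein-coding gene had a Zfp name for 61 regions (4.13%), against 2.22% with H3K4me1 and 1.62% of all merged regions, a grouping chosen after its values were seen. Of these 61, 17 overlapped an Oct4+ H3K9me3 region.

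Words of 32 bases repeated elsewhere in the genome were more frequent in the regions without H3K4me1 than in the comparison groups, whereas soft-masked repeats took a like share of both Oct4-only groups, a description with no test over regions. At least 25% of the 32-base words of the 300 bp window occurred elsewhere in the genome in 289 regions (19.6%), against 11.4% with H3K4me1, 2.52% of regions in all 9 libraries and 7.26% of all merged regions. At 50% of words, the count was 83 (5.62%), against 3.60%, 0.841% and 2.13%. Soft-masked sequence, which holds interspersed and simple repeats, took a median of 25.3% of a region without H3K4me1, 25.5% with it and 19.8% for regions in all 9 libraries. The median GC content of the window was 47.7%, 49.3% and 64.3%, and the ratio of observed to expected CpG was 0.164, 0.186 and 0.772.

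The motifs searched, on both strands and with matches of different motifs allowed to overlap, were each found in at most 10.4% of the windows of the 1476 regions, and their shares in the Oct4-only groups were not tested against each other. The POU octamer (ATGCAAAT), bound by OCT4 and its relatives, was in 31 windows (2.10%), against 1.90% with H3K4me1 and 1.40% of all merged regions. The SOX motif was in 92 (6.23%), against 5.71% and 4.66%. The motif of ESRRB (TCAAGGTCA), a nuclear receptor of naive pluripotency, was in 23 windows (1.56%), against 2.96% and 0.933%, and the STAT motif (TTCCNGGAA) in 13 (0.881%), against 1.90% and 0.949%. The YY1 motif (AAGATGGC) was in 40 (2.71%), against 1.48% and 2.10%. The GATA motif (AGATAAG) was in 45 (3.05%), against 3.70% and 3.98%. For the SP motif (GGGCGGGG), common in CpG island promoters, the share was 3.52%, against 21.9% of regions in all 9 libraries and 3.83% of all merged regions. The other 8 motifs were in 0.0678% to 10.4% of the windows. A match is a description of the sequence and does not show binding.

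Regions without H3K4me1 lay at several pluripotency genes. Of 25 pluripotency genes, 4 had a region at a promoter, namely Sox2, Tbx3, Dppa2 and Dppa4, beside 1.3% of 21924 protein-coding genes, and Zfp42 (also called Rex1) made 5 within 20 kb of a TSS (20%, beside 4.54%). Oct4-only regions with H3K4me1 were within 20 kb of 8 of the 25, namely Nanog, Esrrb, Tfcp2l1, Dppa3, Tdgf1, Fgf4, Gdf3 and Tcl1, and no gene was in both sets. The lists were chosen with earlier results of these data known, so these counts are a description. Within 20 kb of the 25 endoderm and 25 trophectoderm genes there were 0 regions without H3K4me1, and there were 0 for the 20 germline and 2-cell genes, counts that are near the 4.54% of all protein-coding genes in lists of this size. Oct4-only regions with H3K4me1 were near 0 of 25 endoderm, 2 of 25 trophectoderm and 0 of 20 germline and 2-cell genes, beside 3.36% of all protein-coding genes.

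Sox2, which encodes the partner of OCT4 at many enhancers, had a region of 3975 bp at its promoter with a total signal of 19132, 11596 and 14712 in Oct4+ R1, R2 and R3. At Tbx3, a T-box factor of naive pluripotency, the values were 22262, 14509 and 8035. These 2 regions also had scattered H3K4me1 peaks, with 1 of 3 Oct4+ libraries each, 1 and 2 of 3 DP libraries, and 1 of 3 Pdgfra+ libraries each. Sox2 also had an H3K27me3 peak in 1 DP and 1 Pdgfra+ library. Dppa2 and Dppa4, neighbouring genes for chromatin proteins that act on bivalent promoters, had separate regions at their promoters. The Dppa2 region had 18293, 8287 and 8251, and the Dppa4 region 8023, 12975 and 7035. No peak of H3K4me1, H3K27me3 or H3K9me3 overlapped either in any library. The region 16.3 kb from Zfp42 was among the weaker ones, at 9664, 5671 and 7563 and a mean percentile of 40.2.

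In the other lists, regions at promoters were few, and all counts stand beside 1.3% of protein-coding genes with a region at a promoter and 4.54% with one within 20 kb. Chromatin and DNA methylation genes had 2 of 25, at Tet2, a 5-methylcytosine dioxygenase, and Kdm4c, an H3K9 demethylase, and 5 of 25 within 20 kb (20%, with Eed, Suz12 and Kdm5b), against 4 of 25 for regions with H3K4me1. The Kdm4c region had a total signal of 28511, 10451 and 6832 in R1, R2 and R3, and the Tet2 region 23915, 5512 and 8767, so that R1 stood far above the others at both. Glycolysis genes had 2 of 20, at the glucose phosphate isomerase gene Gpi1 (19186, 29607 and 6858) and the glucose transporter gene Slc2a3 (7804, 11232 and 5922). No further glycolysis gene had one within 20 kb, against 5 of 20 (25%) for regions with H3K4me1, namely Hk1, Hk2, Pfkm, Pfkp and Pdk1. Cell cycle and DNA replication genes had 1 of 30 at a promoter, that of the helicase subunit gene Mcm3 (11153, 19892 and 12116), and 3 of 30 within 20 kb (10%, with Cdk1 and Myc), against 2 of 30 for regions with H3K4me1. The point of strongest H3K27ac lay in a promoter at Gpi1 and Slc2a3. It lay in an exon at Tet2 and in introns at Kdm4c and Mcm3. Of the 16 formative epiblast genes Nodal, and of the 24 JAK-STAT and LIF genes Ptpn11, had a region within 20 kb but none at a promoter, both shares (6.25% and 4.17%) near that of all genes. Regions with H3K4me1 were within 20 kb of 3 of the 16 and 1 of the 24.

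**Figure D2:**
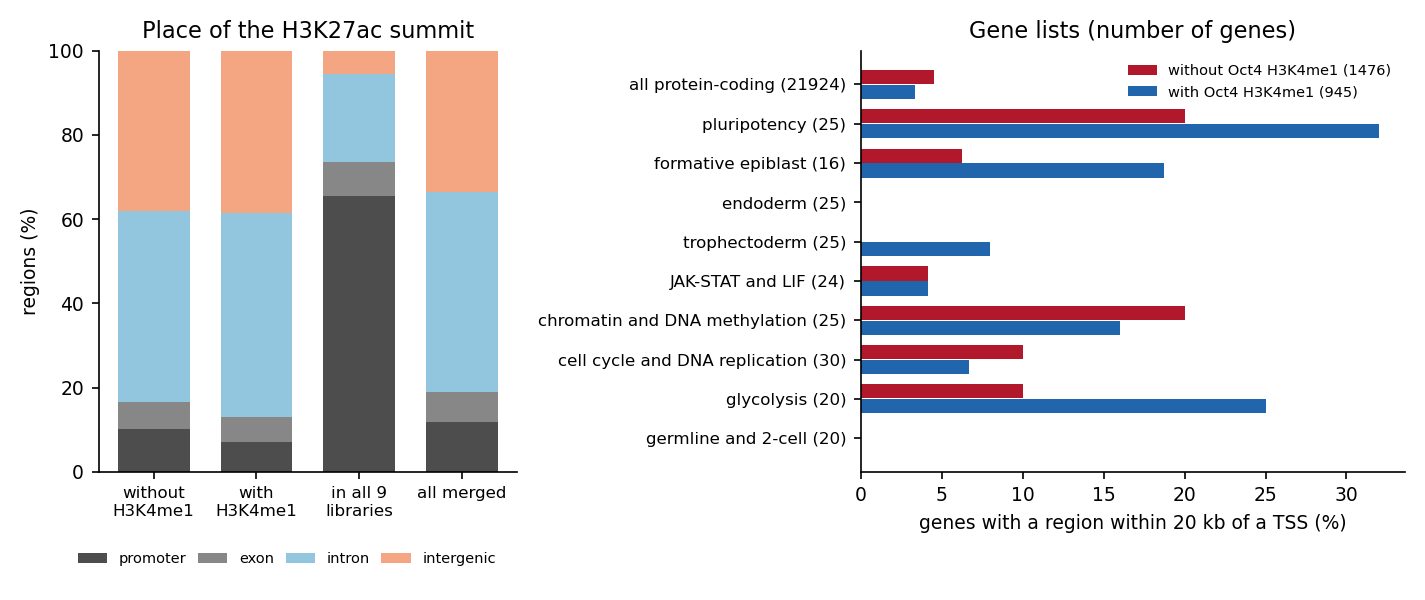
Left, the share of regions (%) whose point of strongest H3K27ac lay in a promoter, exon, intron or between genes, for each group. Right, the share of genes of each list (%) with a region within 20 kb of a TSS. Introns held 45.5% and intergenic DNA 38% of the regions without H3K4me1, and pluripotency and chromatin genes had such regions nearby in 5 of 25 cases each.

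The strongest regions at protein-coding promoters were not those of the lists. The first by mean percentile lay 0.552 kb from a TSS of Ncoa1, a nuclear receptor coactivator gene, with a total signal of 61810, 61806 and 42373 in R1, R2 and R3. The next lay at Tdpoz3, of a family of POZ-domain genes in tandem copies, with 83101, 88829 and 47222. The widest, at C130026I21Rik, had 88327, 110590 and 35995, with 88.1% of its words repeated elsewhere. The other 7 were at Tmprss12, AW822073, Fubp3, Steap2, the zinc finger genes Zfp981 and Zfp141, and the centromere protein gene Cenpm. Their total signal ran from 14890 at Zfp141 in R3 to 51286 at Steap2 in R1. Of the 10 regions, only those at Fubp3, Zfp981 and Cenpm had their point of strongest H3K27ac in a promoter. The rest overlapped a promoter but had this point in an intron, an exon or between genes. H3K9me3 peaks lay over the Ncoa1 region in 3 of 3 Oct4+ libraries and in 0 of 6 others, whereas those over C130026I21Rik and AW822073 were in all 9 libraries. No H3K9me3 peak lay over the Fubp3 and Cenpm regions. AW822073 (chr10:58223058-58225904) was singular among the 10 in also having H3K27me3 peaks in all 3 Oct4+ libraries, and 88.1% of its words were repeated.

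Away from any TSS, the strongest region was the one near Zfp990 (chr4:145431239-145441001), with 68396, 63574 and 39568 in R1, R2 and R3 and H3K9me3 peaks in all 9 libraries. The second, near Gm10553 (73311, 73085 and 34965), had the same H3K9me3 pattern. The third, 66.7 kb from Map4k3, a kinase gene, had 70964, 57863 and 36744 and an H3K9me3 peak in 1 Oct4+ library only. Zfp236, Scaf8, Sulf1, Ptprk and Ly96 were the nearest genes of the other 5. The region in an intron of Sulf1, a heparan sulfate endosulfatase gene, had 58787, 57543 and 23121 and no H3K9me3 peak in any library. R3 gave the lowest value at all 10 promoter regions and at 7 of these 8, the exception being Ptprk.

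**Figure D3:**
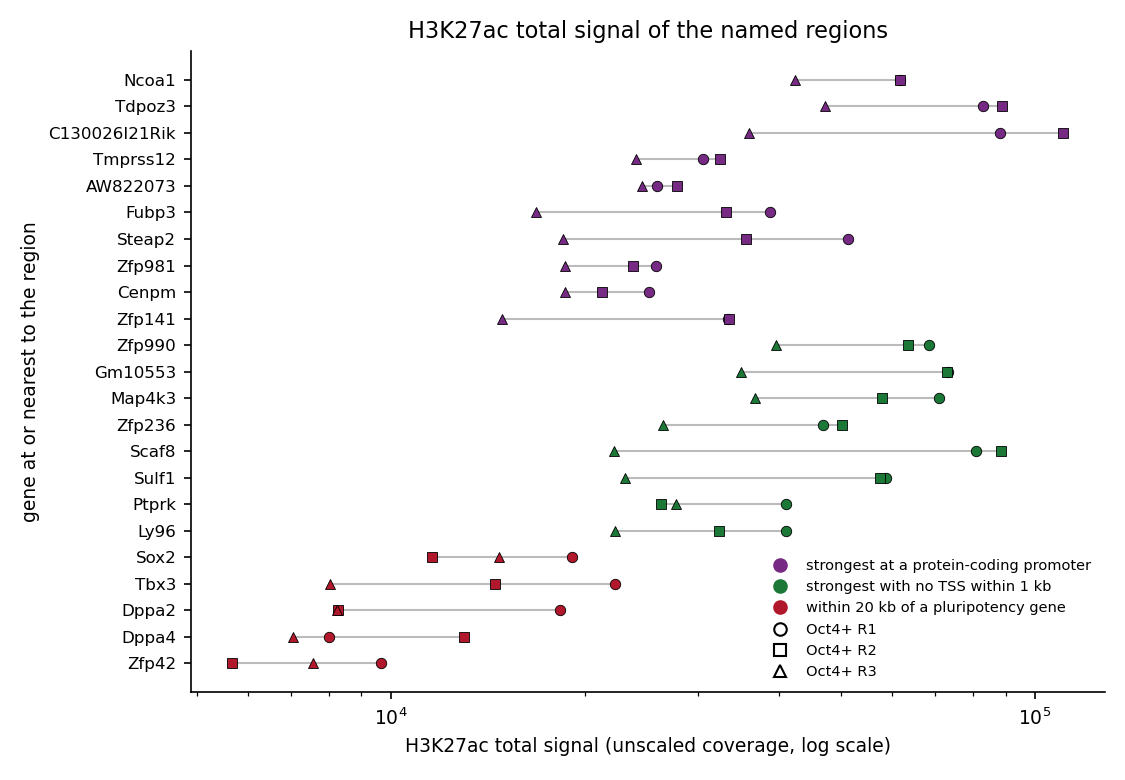
H3K27ac total signal (log scale, unscaled coverage) of the named regions in Oct4+ R1, R2 and R3, labelled by the gene at or nearest to each. The regions at pluripotency genes, from 5671 to 22262, overlap in part with those of the strongest regions at promoters and away from TSS, from 14890 to 110590.

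H3K9me3, which the rule did not use, was the most frequent other mark on these regions. A listed H3K9me3 peak overlapped 27.3%, 22.8% and 15.5% of the 1476 regions in Oct4+ R1, R2 and R3. The shares were 10.2%, 15.6% and 9.55% in DP, and 16.9%, 6.98% and 9.96% in Pdgfra+. Means were 21.9 ± 5.95, 11.8 ± 3.32 and 11.3 ± 5.11% (SD, n = 3), and the populations overlapped, since Oct4+ R3 lay below DP R2 and Pdgfra+ R1. The difference between populations did not pass the test (exact permutation test of the F statistic, p = 0.104, adjusted p = 0.124 over the 12 tests made). When every H3K9me3 list was cut to its 5322 strongest peaks, the number in the shortest list, the mean shares became 9.80% in Oct4+, 6.50% in DP and 7.09% in Pdgfra+ and the test passed (exact permutation p = 0.0107, adjusted p = 0.0257). The full H3K9me3 lists had a lowest total signal of 3752, 4609 and 4011 in Oct4+. It was 6376, 6021 and 6596 in DP, and 8993, 7633 and 7952 in Pdgfra+. An equal number of peaks sets no common lowest signal, so populations and lists cannot be told apart here.

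The regions without H3K4me1 had H3K9me3 more often than either comparison group in every library. Within the central 1 kb, which removes the difference in width, the shares in Oct4+ R1, R2 and R3 were 21.1%, 16.9% and 11.3%. Those of Oct4-only regions with H3K4me1 were 11.2%, 9.63% and 4.55%. The difference averaged 5.97 percentage points over the 9 libraries of the 3 populations and was positive in 9 of 9 (exact two-sided sign-flip permutation p = 0.00391, the smallest the test can give, adjusted p = 0.0156). By population it was 7.93 ± 1.69 points in Oct4+, 4.27 ± 0.839 in DP and 5.71 ± 2.04 in Pdgfra+ (SD, n = 3), and these did not differ past the threshold (exact permutation p = 0.0857, adjusted p = 0.124). Against regions in all 9 H3K27ac libraries, which had shares of 1.36 to 2.72% in Oct4+, the difference averaged 10.1 points, again in 9 of 9 libraries (exact permutation p = 0.00391, adjusted p = 0.0156).

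The difference from the regions with H3K4me1 ran from 1.57 to 18.9 points when regions were restricted by repeated words or by H3K27ac signal. With regions of 25% or more repeated words left out of all groups, which kept 1187 and 837 regions, it was 4.04 points in 9 of 9 libraries (exact permutation p = 0.00391, adjusted p = 0.0156). In the 850 and 608 regions with no repeated word in the window, it fell to 1.57 points, again in 9 of 9 libraries with the same p-values, and the difference from regions in all 9 H3K27ac libraries fell to 3.80 points. When the groups were cut to the 114 and 219 regions whose H3K27ac signal reached the lowest of DP R1 in all 3 Oct4+ libraries, it was 16.8 points in 9 of 9 libraries (exact permutation p = 0.00391, adjusted p = 0.0156). With only the regions without H3K4me1 cut in this way, it was 18.9 points in 9 of 9 libraries (exact permutation p = 0.00391, adjusted p = 0.0156). These restrictions were chosen after the data were seen, and those by signal use the H3K27ac signal by which the regions were found. Away from promoters the difference from the regions with H3K4me1 was 5.83 points (adjusted p = 0.0234 by the same exact permutation test). There the difference from regions in all 9 H3K27ac libraries was 5.80 points, against 10.1 with promoters included (same test and adjusted p).

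**Figure D4:**
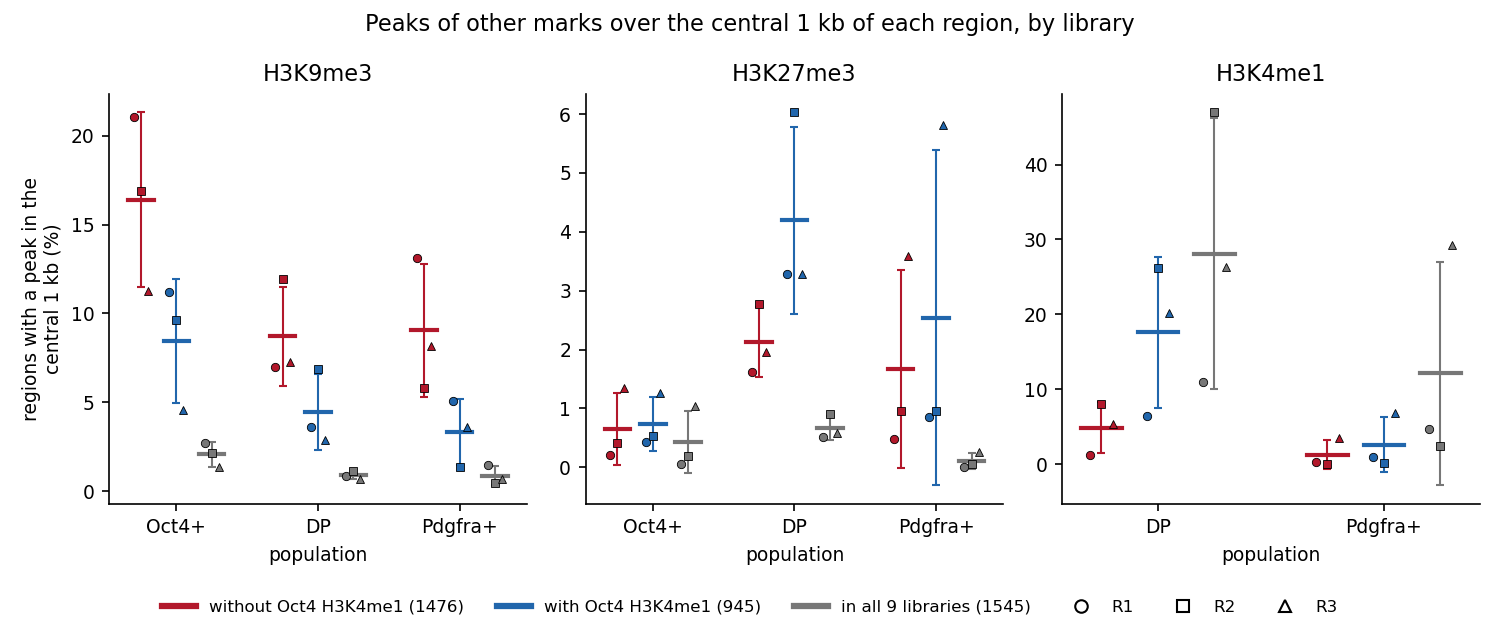
Share of regions (%) with a listed H3K9me3, H3K27me3 or H3K4me1 peak in the central 1 kb, by population. Symbols are the 3 libraries, horizontal bars the mean and error bars the SD. Oct4+ H3K4me1 is left out because it chose the groups. For H3K9me3 the regions without H3K4me1 (red) lay above those with it (blue) in each of the 9 libraries.

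By consensus regions, 333 of the 1476 regions (22.6%) overlapped an Oct4+ H3K9me3 region, beside 5.23% of all 78959 merged H3K27ac regions. For DP and Pdgfra+ H3K9me3 the count was 167 each (11.3%), beside 4.63% and 4.97%. Of the 412 regions with H3K9me3 in any population, 206 had it in Oct4+ alone, 93 in all 3 populations, 34 in Oct4+ and 1 other, and 79 outside Oct4+ only. These counts carry the differences in length and lowest signal between the H3K9me3 lists. In 225 of the 333 (67.6%), the very point of strongest H3K27ac lay inside an H3K9me3 peak in at least 2 Oct4+ libraries. This held for 42.0% of the 138 such regions with H3K4me1, 32.9% of the 85 in all 9 H3K27ac libraries and 50.8% of the 4128 among all merged regions. The H3K9me3 peaks over these regions stood above the middle of their lists, with a median percentile of 65.8 to 68.7 within the Oct4+ lists, 71.7 to 74.3 within DP and 73.4 to 76.4 within Pdgfra+. Both marks were measured in separate libraries of a population, so whether they sat on the same alleles or cells was not tested.

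The 333 regions with Oct4+ H3K9me3 had stronger H3K27ac and lay farther from genes than the other 1143, by medians over regions with no test. They stood at a median H3K27ac percentile of 74.1 against 61.4, with a median maximum coverage of 14, 11 and 9 fragments against 10, 9 and 7. They lay at a promoter in 20.7% against 30.7% of cases, at a median of 45.2 kb against 13.2 kb from a protein-coding TSS. Soft-masked repeats took a median of 34.4% against 23.0% of their length, and 124 of them (37.2%) had 25% or more repeated words, against 14.4%. The share with H3K9me3 was 12.2% in the weakest decile of the 1476 regions by H3K27ac percentile and 48.6% in the strongest decile. Among the 88 regions of the strongest decile with under 25% repeated words it was 46.6%. The strongest decile was also wider, with a median of 6444.5 bp against 4238 bp for the rest. Overlap was counted over whole regions, so width was not removed from these shares.

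**Figure D5:**
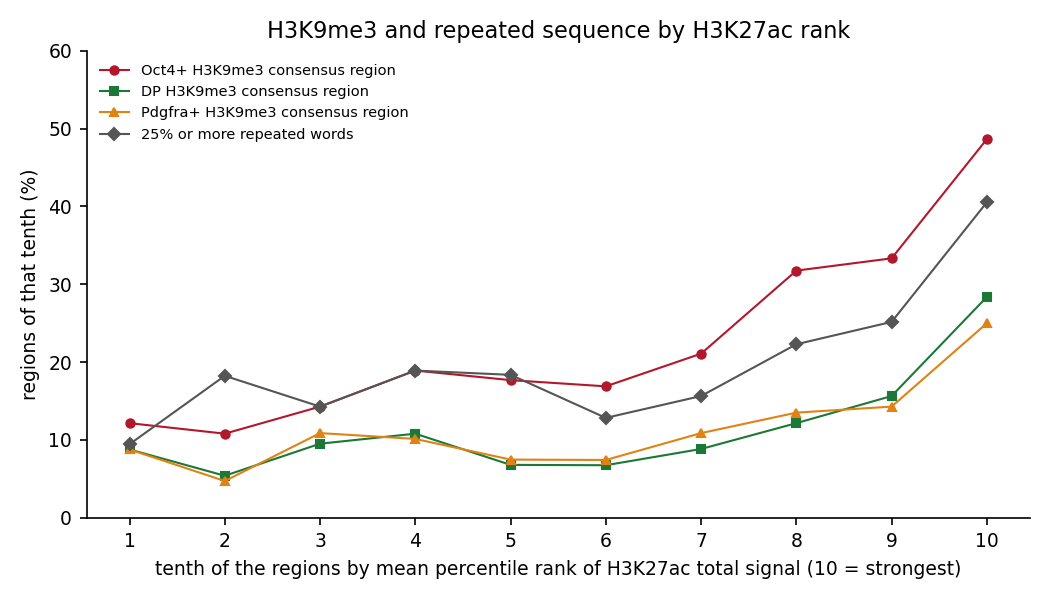
Share (%) of the regions without H3K4me1 that overlapped an H3K9me3 consensus region of each population, or had 25% or more repeated words, in deciles by mean H3K27ac percentile in the Oct4+ libraries. Each decile holds 147 or 148 regions. Overlap was counted over whole regions, which were wider in the last decile. The Oct4+ share was 12.2% in the first decile and 48.6% in the last, and the DP share 8.78% and 28.4%.

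H3K4me1 was rare on these regions in the other populations as well. A peak overlapped 1.96%, 9.82% and 7.32% of them in DP R1, R2 and R3, and 0.610%, 0.0678% and 4.88% in Pdgfra+. The lists of DP R1, Pdgfra+ R1 and Pdgfra+ R2 were the shortest of these 6 (4371, 1723 and 1074 peaks), and gave the lowest shares. The means of 6.37 ± 4.01% in DP and 1.85 ± 2.63% in Pdgfra+ (SD, n = 3) overlapped (exact permutation p = 0.20, adjusted p = 0.218, where 3 libraries against 3 cannot go below 0.10). By consensus, 91 regions (6.17%) overlapped DP H3K4me1, beside 9.26% of all merged regions, and 6 (0.407%) overlapped Pdgfra+ H3K4me1, beside 2.29%. Oct4-only regions with Oct4+ H3K4me1 had DP H3K4me1 in 24.4% of cases.

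Within the central 1 kb, H3K4me1 was lower than in the regions with Oct4+ H3K4me1 in 6 of 6 DP and Pdgfra+ libraries. The rule selected on Oct4+ H3K4me1, so comparisons of the same mark in populations of the same culture are not independent of it. In DP R1, R2 and R3 the shares were 1.22%, 8.06% and 5.35%, against 6.46%, 26.1% and 20.2%. The mean difference over the 6 libraries was -7.05 points, with the smallest p this design allows before adjustment (exact sign-flip permutation p = 0.0313), which did not pass after it (adjusted p = 0.0625). Against regions in all 9 H3K27ac libraries the mean difference was -17.0 points with the same p-values. With every H3K4me1 list cut to its 1074 strongest peaks, these differences were -1.11 and -6.68 points and both passed (exact permutation p = 0.0313, adjusted p = 0.0482). The differences were smaller and the p-value before adjustment was the same. Both calls changed only through the adjustment, in which other tests had lower p-values than before. The difference was -12.7 ± 6.68 points in DP and -1.37 ± 1.71 in Pdgfra+ (exact permutation p = 0.10, the smallest possible, adjusted p = 0.124). The 3 strongest regions with DP H3K4me1 lay nearest to Tlr2, a receptor of innate immunity, Serpini1, which encodes neuroserpin, and Glrx3, a glutaredoxin gene. Each had H3K4me1 peaks in 2 DP libraries and in 1 Oct4+ library.

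H3K27me3 was listed at few of these regions. It overlapped 0.203%, 0.474% and 1.69% of the regions in Oct4+ R1, R2 and R3, 1.76%, 3.39% and 2.37% in DP, and 0.474%, 1.29% and 4.0% in Pdgfra+. The Oct4+ and DP libraries did not overlap, while Pdgfra+ spanned both, and the 3 populations did not differ past the threshold (exact permutation p = 0.293, adjusted p = 0.293). With every H3K27me3 list cut to its 1143 strongest peaks the test passed (exact permutation p = 0.0321, adjusted p = 0.0482), with means of 0.181% in Oct4+, 0.587% in DP and 0.655% in Pdgfra+. Consensus H3K27me3 was found at 11 regions in Oct4+ (0.745%, beside 2.52% of all merged regions), 40 in DP (2.71%, beside 5.56%) and 26 in Pdgfra+ (1.76%, beside 3.06%). In the central 1 kb the regions without H3K4me1 had less H3K27me3 than those with it, by a mean of -1.01 points in 8 of 9 libraries (exact sign-flip permutation p = 0.0117, adjusted p = 0.0352). The exception was Oct4+ R3, at 1.36% against 1.27%. This call was lost away from promoters (-0.803 points, adjusted p = 0.0643) and in the regions with no repeated word (-1.28 points, adjusted p = 0.0625), and the difference turned to 0.517 points (adjusted p = 0.328) in the 114 and 219 strongest regions, all by the same exact permutation test. They had more than regions in all 9 H3K27ac libraries, by 1.08 points in 9 of 9 libraries (exact permutation p = 0.00391, adjusted p = 0.0156), with both groups under 4% in every library, a call lost over whole regions (0.754 points, exact permutation p = 0.0508, adjusted p = 0.0918).

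The strongest regions with H3K27me3 in any population were at AW822073, at Steap2, a metalloreductase gene with H3K27me3 in 3 DP and 1 Pdgfra+ libraries, and near Vmn1r238, a vomeronasal receptor gene, with 2 DP and 1 Pdgfra+ libraries. Of the 1476 regions, 947 (64.2%) overlapped no consensus region of H3K9me3 or H3K27me3 in any population, nor of H3K4me1 in DP or Pdgfra+. The same held for 56.2% of the Oct4-only regions with Oct4+ H3K4me1 and 54.4% of regions with H3K27ac in every library. Among all merged H3K27ac regions the share was higher, at 76.2%.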

How the data were processed

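CUT&Tag of 4 histone marks was analysed in 36 libraries of sorted nEnd, 3 biological replicates for each of 3 populations. The deposited peak lists were called by the authors with SEACR in stringent mode, 1 list per library against IgG, from BEDtools coverage. The deposited signal values are whole numbers of fragment coverage, not scaled to depth, and no source used here gives the depth of sequencing. The submitters' processing notes name mm10, Bowtie2, SAMtools 1.12, bedtools 2.26.0, bcl2fastq 2.19.1 and deepTools. Alignment settings for reads that map to several places are not given in the sources used here.

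Peaks were merged and overlapped (at least 1 bp) with pandas 2.3.3 and NumPy 2.4.6 under Python 3.11.15. The overlap code was checked against bedtools 2.31.1, and the tests, which used SciPy 1.17.1 for intervals, were tested on simulated data. Positions were annotated with GENCODE vM21, and sequence was read from GRCm38 with pysam 0.24.0. Figures were drawn with Matplotlib 3.10.9. The 32-base words were counted over the whole assembly with Numba 0.67.0.

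The members and gene lists were chosen with earlier results of these data known. Named regions were those of highest mean percentile rank of H3K27ac total signal over the Oct4+ libraries: 10 at protein-coding promoters, 8 with no TSS within 1 kb, 3 each with DP H3K4me1, with H3K27me3 and with H3K9me3, and those at listed genes. Windows of 300 bp that overlapped an annotated UTR are not printed, and 1 further window is not reported here.

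Each test took libraries as its units. Populations were compared by exact permutation of the F statistic or of a difference of means, and groups of regions by exact sign-flip permutation of the difference within each library, all two-sided. P-values were adjusted by Benjamini and Hochberg over 12 tests, with a threshold of 0.05. Tests across regions were not made. Alternatives were shorter lists, other windows and overlaps, regions away from promoters, a replicate block, leaving out replicates and, added after seeing the data, regions restricted by repeated words or by H3K27ac signal.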

Additional observations from a re-analysis of the deposited data

How the results depend on the processing

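The number of regions depended on the lists. It was 1476 as reported, 1027 to 1976 under other H3K4me1 rules, 981 with the 50% strongest peaks of each list, 354 with equal numbers of peaks per mark, and 9 with a common minimum total signal of 28044 for H3K27ac. Leaving out 1 replicate of every population gave 2181 to 13519 regions, the highest without replicate 3. The share at promoters was 18.4% with protein-coding genes only and 15% by the central 1 kb.

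Of 153 recomputed tests, 132 kept their direction and their side of the threshold, and 1 changed direction: H3K27me3 against regions with H3K4me1, at 0.517 points (exact permutation, adjusted p = 0.328) when all groups were cut to strong regions. With equal numbers of peaks, 4 tests passed that had not: H3K27me3 between populations (0.407 points, DP over Oct4+, with Pdgfra+ highest, adjusted p = 0.0482), H3K9me3 between populations (2.71 points), and H3K4me1 against regions with Oct4+ H3K4me1 (-1.11 points) and against regions in all 9 libraries (-6.68 points, both adjusted p = 0.0482), all by exact permutation. By exact permutation, H3K27me3 against regions with H3K4me1 did not pass away from promoters (-0.803 points, adjusted p = 0.0643), with no repeated word (-1.28 points, adjusted p = 0.0625) or with only the regions without H3K4me1 cut to the 114 strongest (-0.251 points, adjusted p = 0.633), nor H3K27me3 against regions in all 9 libraries over whole regions (0.754 points, adjusted p = 0.0918). Without 1 replicate, no test passed after adjustment, and none could have passed. With 6 libraries the exact sign-flip permutation test cannot go below p = 0.0313, which adjustment takes above 0.05, and the other tests have higher limits. These runs therefore cannot show whether a call rests on 1 replicate. Whichever replicate was left out, the H3K9me3 differences from either comparison group were positive in 6 of 6 libraries, at this smallest p. The differences were then -1.14 to -0.938 (H3K27me3) and 5.40 to 6.34 points (H3K9me3) against regions with H3K4me1, and 0.781 to 1.33 and 9.13 to 11.2 points against regions in all 9 libraries.

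With the replicate block, no call changed (H3K9me3 between populations, 10.6 points, exact permutation p = 0.111, adjusted p = 0.167). Same-numbered libraries correlated above 0.1 in 6 of 21 pairs (-0.214 to 0.321). The labels do not say whether libraries of the same number came from the same sort, and this was not tested. Within 5 kb and within 50 kb of a TSS, the listed genes with a region were 0 and 1 of 16 (formative epiblast) and 0 and 1 of 25 (endoderm). They were 0 and 4 of 24 (JAK-STAT and LIF), 1 and 4 of 30 (cell cycle) and 0 and 1 of 20 (germline and 2-cell). Of all protein-coding genes, 2.18% and 8.57% had a region at these distances. Oct4-only regions with H3K4me1 were also within 50 kb of 4 of the 24 JAK-STAT and LIF genes. Depth is unknown, so a missing peak is not an absent mark.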

Other observations

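Of the 1476 regions, 7 on 5 chromosomes began within 100 kb of the first sequenced base of their chromosome, next to the centromeric gap of the assembly, and all 7 overlapped an Oct4+ H3K9me3 consensus region. This was 0.474% of the regions, against 0.0443% of all 78959 merged H3K27ac regions (35, of which 16 overlapped Oct4+ H3K9me3). The windows were not chosen in advance of seeing the values.

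The H3K4me1 peaks that did lie over the regions without consensus H3K4me1 stood below the middle of their lists by median total signal. Their median percentile was 31.4 to 42.2 in DP (32 to 146 peaks), and 44.7 and 32.3 in Pdgfra+ R1 and R3 (10 and 73 peaks), with 1 peak at 13.6 in R2. In the 3 Oct4+ libraries it was 24.5 to 39.7, which is not independent of the rule, since the regions were selected for lacking H3K4me1 peaks seen in 2 or more of these lists.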
